A study of Mus musculus with 53 samples.

Results

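The data on 7 noncoding RNAs were examined, which total RNA libraries capture whether or not they carry a poly(A) tail: Malat1, Neat1, Miat, Snhg11, Rmrp, Rn7sk and Rpph1. They were chosen by name, and no threshold on their values was used. The 7 symbols matched 8 of the 53379 Ensembl gene identifiers in the deposited count tables, because Rmrp is annotated as 2 genes, and 6 of the 7 symbols had counts. The data came from mice that inherited a null allele of Nnat from their father (Nnat+/-p) and from Nnat+/+ mice of the same cross of wild-type mothers with heterozygous fathers. Nnat is an imprinted gene expressed from the paternal copy. The paraventricular nucleus (PVN) or the arcuate nucleus (ARC) of the hypothalamus was cut by laser from the brain at an age of 13 to 14 weeks, and RNA of low input was amplified into single-end, stranded total RNA libraries. Of 53 libraries, 49 were used, which left out replicates 5, 7 and 35 for their low totals and replicate 32, whose label and table name different nuclei.

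The female PVN on chow was measured in 4 Nnat+/+ libraries (24.1 to 24.6 g), 3 non-obese Nnat+/-p libraries (20.4 to 23.9 g) and 3 obese Nnat+/-p libraries (31.5 to 33.35 g). From males on chow there were PVN libraries of 3 Nnat+/+ mice (31.4 to 33.5 g), of 3 Nnat+/-p mice that were not obese (27.4 to 34.3 g) and of 4 that were (38.8 to 46.5 g). On a diet labelled as 45% high-fat (HFD) there were male PVN libraries of 6 Nnat+/+ (37.4 to 42.9 g) and 3 Nnat+/-p mice (38.2 to 43.9 g). For the male ARC, chow gave 2 Nnat+/+ libraries (31.4 to 33.5 g), and 4 each of non-obese (27.4 to 34.3 g) and obese Nnat+/-p (38.8 to 46.5 g), while HFD gave 6 Nnat+/+ (37.4 to 43.9 g) and 4 Nnat+/-p libraries (38.2 to 43.1 g). The labelled weights of the ARC libraries largely repeat those of the PVN, so the nuclei are not known to come from separate mice. Replicates 39 and 40 of the ARC carry a single weight of 34.3 g. Nnat+/+ replicates 1 and 2 of the female PVN likewise carry a single weight of 24.1 g. On HFD, 2 weights cross the genotypes between the nuclei. A weight of 42.9 g is Nnat+/+ in the PVN (replicate 24) and Nnat+/-p in the ARC (replicate 51). A weight of 43.9 g is Nnat+/-p in the PVN (replicate 30) and Nnat+/+ in the ARC (replicate 44). Since no label says that libraries are separate mice, p-values measure the spread between these libraries.

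These RNAs work as RNA and are not translated. Malat1 is retained in nuclear speckles, where splicing factors gather, Neat1 is the scaffold of paraspeckles, and Miat (Gomafu) is a nuclear RNA of neurons that binds splicing factors. Snhg11 is a host gene whose introns carry small nucleolar RNAs and whose spliced transcript is prominent in neurons. The other RNAs are made by RNA polymerase III and have no poly(A) tail. Rn7sk holds the elongation factor P-TEFb in an inactive complex, Rpph1 is the catalytic RNA of RNase P, which trims the 5′ end of precursor transfer RNAs, and Rmrp is the RNA of RNase MRP, which acts on precursor ribosomal RNA.

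Some of these genes overlap or have copies, which bears on how their counts can be read, and the stretches concerned are shown, 5′ to 3′, from the GENCODE transcripts of GRCm38. Both Rmrp genes lie on the minus strand of chromosome 4. The shorter one (ENSMUSG00000088088, a ribozyme of 271 bases, 43492788 to 43493058) lies wholly inside the longer one (ENSMUSG00000115420, a lincRNA of 281 bases, 43492783 to 43493063), and 124 bases of the longer one lie opposite exons of Ccdc107 on the other strand. The first 40 bases and bases 165 to 281 of the longer gene, outside Ccdc107, are given with the part shared by both Rmrp genes in capitals.
Rmrp, chr4:43493024-43493063, minus strand: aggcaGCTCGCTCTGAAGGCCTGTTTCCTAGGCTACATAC
Rmrp, chr4:43492783-43492899, minus strand: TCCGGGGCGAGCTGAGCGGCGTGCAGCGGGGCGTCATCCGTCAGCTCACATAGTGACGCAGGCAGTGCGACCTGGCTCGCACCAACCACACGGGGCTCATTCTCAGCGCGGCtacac

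Rpph1 (ENSMUSG00000092837, chromosome 14 from 50807449 to 50807767, minus strand, 319 bases) has 233 bases inside exons of Ccnb1ip1 on the same strand, and 86 bases outside them. Its first 60 bases are given, with the bases that lie in a Ccnb1ip1 exon in capitals.
Rpph1, chr14:50807708-50807767, minus strand: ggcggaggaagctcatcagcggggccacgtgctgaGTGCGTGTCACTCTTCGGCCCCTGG

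Rn7sk (ENSMUSG00000065037, chromosome 9 from 78175303 to 78175633, minus strand, 331 bases) has near copies elsewhere in the genome. Its first 300 bases are given, with the 241 bases that are identical in the annotated copy Gm24447 in capitals.
Rn7sk, chr9:78175334-78175633, minus strand: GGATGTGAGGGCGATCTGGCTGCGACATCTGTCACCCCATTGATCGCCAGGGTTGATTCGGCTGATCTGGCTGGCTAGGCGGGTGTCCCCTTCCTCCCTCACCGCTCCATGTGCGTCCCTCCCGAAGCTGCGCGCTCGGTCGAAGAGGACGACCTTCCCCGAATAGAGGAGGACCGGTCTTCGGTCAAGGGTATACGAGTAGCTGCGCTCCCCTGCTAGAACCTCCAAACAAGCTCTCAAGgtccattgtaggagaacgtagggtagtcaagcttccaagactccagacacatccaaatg

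Neither Rmrp gene had a count in any of the 49 libraries. A count of 0 allows up to 3 counts, which is 0.0992 CPM (counts-per-million of the library total) in the deepest library and 2.03 CPM in the shallowest. Ccdc107, opposite to it, had 4058 counts. The counting tool and its rule for reads that fit more than 1 gene were not given in the sources used here and the part of the nested annotation in these zeros was not tested, so they are given as listed values and not as a level of Rmrp RNA. Rpph1 had 160936 counts over the same libraries, against 30 for Ccnb1ip1. Rn7sk had 538554 counts, against 950 for its 5 annotated near copies together.

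The longer members also share some sequence with other genes. Malat1 (ENSMUSG00000092341) lies on chromosome 19 from 5795690 to 5802672 and Neat1 (ENSMUSG00000092274) on the same chromosome from 5824708 to 5845478, both on the minus strand. Miat (ENSMUSG00000097767) lies on the minus strand of chromosome 5 from 112213228 to 112229395. Snhg11 (ENSMUSG00000044349) lies on the plus strand of chromosome 2 from 158375638 to 158386145, and the annotation calls it protein_coding. Stretches of at least 50 bases at 95% identity or more were found in transcripts of 221 other genes for Malat1 (longest 453 bases), 10 for Neat1 (152 bases), 5 for Miat (656 bases) and 13 for Snhg11 (133 bases), and part of their reads could be shared with those. Over the libraries used, these other genes had 1714524 counts against 1371366 for Malat1, and 57969 against 2915 for Neat1. They had 328 against 16199 for Miat and 107870 against 159754 for Snhg11. Those counts cover each whole gene and not only the shared stretch.

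Before the results, some libraries have to be named. The level of Nnat was 224 to 584 CPM over 21 Nnat+/+ libraries against 0.268 to 13.7 CPM over 28 Nnat+/-p libraries, so it matched the labelled genotype throughout. Totals ran from 6219365 to 30228973 counts in the female PVN, 2268021 to 6139659 in the male PVN on chow, 5582716 to 8560199 in the male PVN on HFD and 1479953 to 18058097 in the ARC. Mitochondrially encoded genes took 16.5% to 48.8% of the counts. The PVN markers (Avp, Oxt, Sim1, Crh, Trh and Otp) summed to 31.4 CPM in replicate 15, labelled as male PVN of an Nnat+/+ mouse on chow, and to 169 CPM in replicate 24, an Nnat+/+ male PVN on HFD. The other male PVN libraries had 614 to 2527 CPM of them. The ARC markers summed to 208 CPM in replicate 15, against at most 84.9 CPM in any other male PVN library, so this library goes against its label. The calls between diets in PVN Nnat+/+ are given with and without it. Without it no member was called between the male PVN groups on chow, where its Nnat+/+ group then has 2 libraries.

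Of these RNAs, Malat1, Rn7sk, Snhg11 and Rpph1 were abundant, and Miat and Neat1 were not. By mean CPM, Malat1 was gene 9 of the female PVN, 12 of the male PVN and 22 of the male ARC. Rn7sk was gene 26, 24 and 26, Snhg11 gene 72, 76 and 190, and Rpph1 gene 88, 99 and 127. Miat ranked 2086, 2483 and 3650, and Neat1 8526, 8235 and 9643. The 6 counted members together took 0.353% to 2.29% of a library in the female PVN (median 0.555%), 0.332% to 1.14% in the male PVN (median 0.673%) and 0.252% to 0.668% in the ARC (median 0.396%).

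Per kilobase of exon, the short polymerase III RNAs came first. In the male PVN the mean level per kilobase was 4759 CPM for Rn7sk, 1388 CPM for Rpph1, 583 CPM for Malat1, 62 CPM for Snhg11, 5.57 CPM for Miat and 0.505 CPM for Neat1. The order was the same in the female PVN and the male ARC. Rn7sk was above Rpph1 in 49 of 49 libraries and by a median of 3.58-fold. Rpph1 was above Malat1 in 46 of 49 libraries and by a median of 2.19-fold, but with ratios down to 0.640, so these neighbours do not separate in every library. Malat1 was above Snhg11, Snhg11 above Miat and Miat above Neat1 in all 49.

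**Figure D1:**
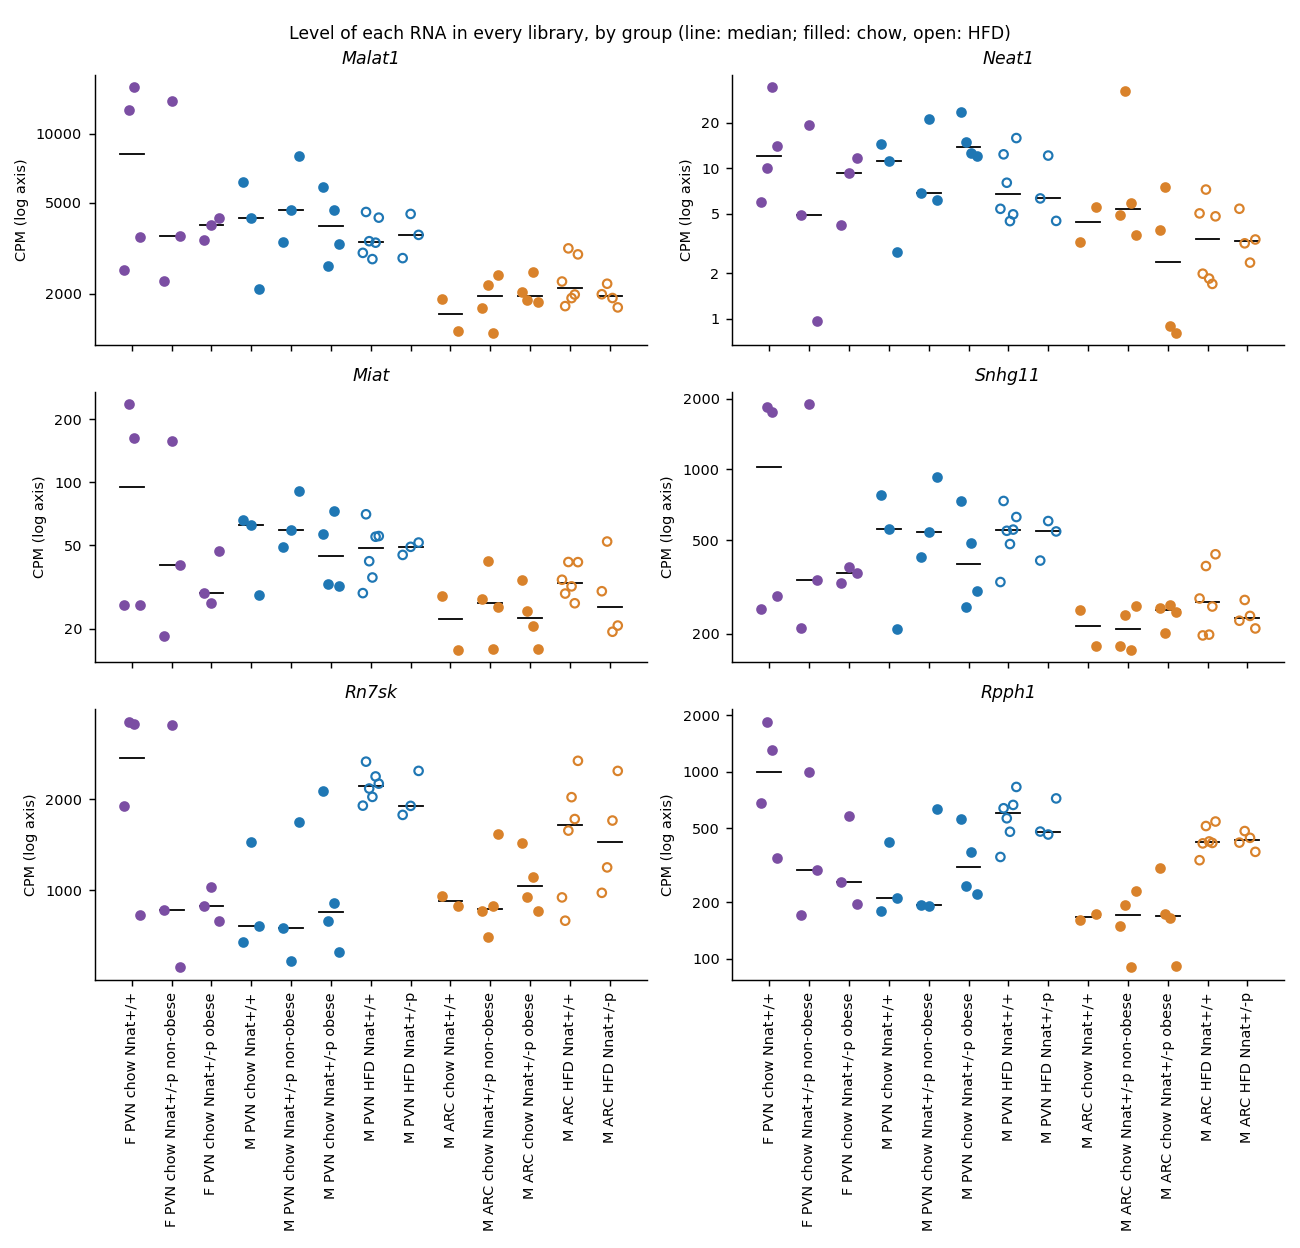
Level in CPM on a log axis of the 6 counted RNAs in every library, with 1 point per library, a line at the median of each group, filled points for chow and open points for HFD. In the female PVN, 3 libraries lie apart at 12685 to 16033 CPM of Malat1, and the HFD points of Rn7sk and Rpph1 in males lie above most chow points.

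Malat1, the speckle RNA, varied most in the female PVN. The Nnat+/+ libraries 1 to 4 had 2526, 12685, 16033 and 3548 CPM. The non-obese Nnat+/-p libraries 9, 10 and 11 had 2269, 13870 and 3567 CPM, and the obese ones 6, 8 and 12 had 3420, 4003 and 4296 CPM. Replicates 2, 3 and 10 stood apart from the other 7, which ran from 2269 to 4296 CPM, and they fall in the Nnat+/+ and non-obese groups only.

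Snhg11 and Miat set the same 3 libraries apart. Snhg11 ran from 1753 to 1892 CPM in replicates 2, 3 and 10 and from 211 to 383 CPM in the other 7. Miat ran from 157 to 237 CPM in the 3 and from 18.4 to 47.1 CPM in the 7. Rn7sk followed, with 3541 to 3627 CPM against 554 to 1906 CPM, and so did Rpph1, with 996 to 1856 CPM against 172 to 683 CPM. Neat1 did not separate them, with 9.97, 34.7 and 19.4 CPM in the 3 and 0.964 to 14 CPM in the 7. These libraries were the 3 shallowest of the table, at 6219365 to 8417480 counts against 11026573 to 30228973. Their other long noncoding RNAs summed to 4942 to 5360 CPM against 1393 to 1908 CPM and their snoRNA host genes to 469 to 591 CPM against 164 to 239 CPM. Their PVN markers summed to 1594 to 2464 CPM against 2585 to 5115 CPM, their neuron markers to 846 to 1244 CPM against 1729 to 2010 CPM, their other structural RNAs to 792 to 1676 CPM against 105 to 378 CPM, and their rRNA-like loci to 38197 to 79138 CPM against 13360 to 38128 CPM. The part of these in the levels of the members was not tested. In tissue of this kind, fewer cells of a type and less RNA per cell cannot be told apart.

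In the female PVN no member was called between the groups, at the study's threshold of an adjusted p under 0.25 in edgeR's quasi-likelihood test. Over all genes 0.0129% passed for obese Nnat+/-p over Nnat+/+, 0.00646% for non-obese Nnat+/-p over Nnat+/+, and 0% for obese over non-obese Nnat+/-p, where 474 genes had an unadjusted p under 0.05 and DESeq2 called 53. Between obese Nnat+/-p and Nnat+/+, 3 members had an unadjusted p under 0.05. The log2 fold change of Rn7sk was -1.56 (SE 0.64), that of Rpph1 -1.69 (SE 0.68) and that of Miat -1.87 (SE 0.85), each with an adjusted p of 0.9997 by edgeR. Without replicates 2, 3 and 10 they were -0.53 for Rn7sk, -0.49 for Rpph1 and 0.45 for Miat, so the size of these values rested on the shallow libraries. The other log2 fold changes of members in the 3 female comparisons ran from -1.66 to -0.20.

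In males on chow, genotype and obesity were also compared, and no member was called. Over all genes the male PVN had 0.0256% called for obese Nnat+/-p against Nnat+/+, 0.0128% for non-obese Nnat+/-p against Nnat+/+ and 0% for obese against non-obese. In the ARC the shares were 0.0205%, 0.0136% and 0.00682%. Between genotypes on HFD, 0.00569% of genes were called in the PVN and 0.0127% in the ARC. The log2 fold changes of the members ran from -0.49 (Snhg11) to 0.91 (Neat1) in the male PVN on chow (-0.34 to 0.52 for obese Nnat+/-p and -0.07 to 0.36 for non-obese Nnat+/-p, each over Nnat+/+, without replicate 15), from -1.59 to 1.11 (both Neat1) in the ARC on chow, and from -0.44 (Snhg11) to 0.02 (Malat1) between genotypes on HFD. Of the other genes examined, only Gfap, an astrocyte marker, was called in any of these comparisons, and it was higher in the ARC of obese Nnat+/-p than of Nnat+/+ mice on chow (2.84). Between obese and non-obese mice in the PVN, 260 genes had an unadjusted p under 0.05 and DESeq2 called 1.

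Only Neat1 had an unadjusted p under 0.05 among these comparisons. In the ARC on chow the obese libraries 36, 37, 41 and 42 had 3.89, 7.47, 0.899 and 0.811 CPM. The non-obese libraries 38, 39, 40 and 43 had 4.91, 32.4, 5.83 and 3.62 CPM, so the groups overlapped. The log2 fold change, obese over non-obese, was -1.59 (SE 0.71, adjusted p = 0.999 by edgeR) and -0.44 without replicate 39, the ARC library with the lowest total, 1479953 counts.

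The diets were compared next, within each genotype and nucleus of males. Rn7sk and Rpph1 were higher on HFD in males, and Malat1, Neat1, Miat and Snhg11 were called in no comparison of diets in the main fit. Rn7sk rose in the PVN of Nnat+/+ mice and the ARC of Nnat+/-p mice, and Rpph1 rose in the PVN of Nnat+/+ mice and in the ARC of both genotypes. The log2 fold changes that passed ran from 0.69 to 1.58.

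In the PVN of Nnat+/+ mice, Rn7sk was 670, 1445 and 758 CPM in chow replicates 13, 14 and 15. On HFD it ran from 1907 to 2669 CPM with a median of 2214 CPM (n = 6), or 2238 ± 269 CPM (SD). Every HFD library was above every chow library. HFD over chow, the log2 fold change was 1.30 (SE 0.34, adjusted p = 0.117 by edgeR). Here 2 of the 6 members tested were called, both higher, against 1.43% of all genes (251 of 17576). Without replicate 15 the number of genes called was 1083. The call held without replicate 15 (1.26, adjusted p = 0.143), and was lost without replicate 13 (1.05, adjusted p = 0.352).

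Rpph1, the RNase P RNA, moved with Rn7sk. In the PVN of Nnat+/+ mice it was 179, 420 and 211 CPM on chow, and from 350 to 830 CPM with a median of 601 CPM on HFD (n = 6), so only chow replicate 14 reached into the HFD range. Its log2 fold change was 1.22 (SE 0.37, adjusted p = 0.206 by edgeR). This call held without replicate 15 (1.16, adjusted p = 0.199). It was lost when replicate 13, 25, 26, 27 or 28 was left out, with log2 fold changes of 0.94 to 1.30, and under DESeq2 (1.17, adjusted p = 0.343).

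In the PVN of Nnat+/-p mice, where 0.239% of all genes were called, no member was. Rn7sk was 747, 581 and 1681 CPM in the non-obese chow libraries 18, 19 and 22. It was 2135, 790, 908 and 621 CPM in the obese chow libraries 16, 17, 20 and 21, and 1776, 1903 and 2487 CPM in HFD libraries 29, 30 and 31. Replicate 16 lay within the HFD range and the other 6 chow libraries below it. HFD was compared with the mean of both chow groups, and the log2 fold change was 0.99 (SE 0.30, adjusted p = 0.411 by edgeR). Rpph1 was 194, 191 and 631 CPM in non-obese and 558, 244, 374 and 223 CPM in obese chow libraries, and 479, 462 and 720 CPM on HFD. Its log2 fold change was 0.69 (SE 0.33, adjusted p = 0.701 by edgeR). Single chow libraries decided these calls, since Rn7sk was called without replicate 16 (adjusted p = 0.0783) or 22 (1.39, adjusted p = 0.00982), and Rpph1 without replicate 22 (1.22, adjusted p = 0.0402).

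**Figure D2:**
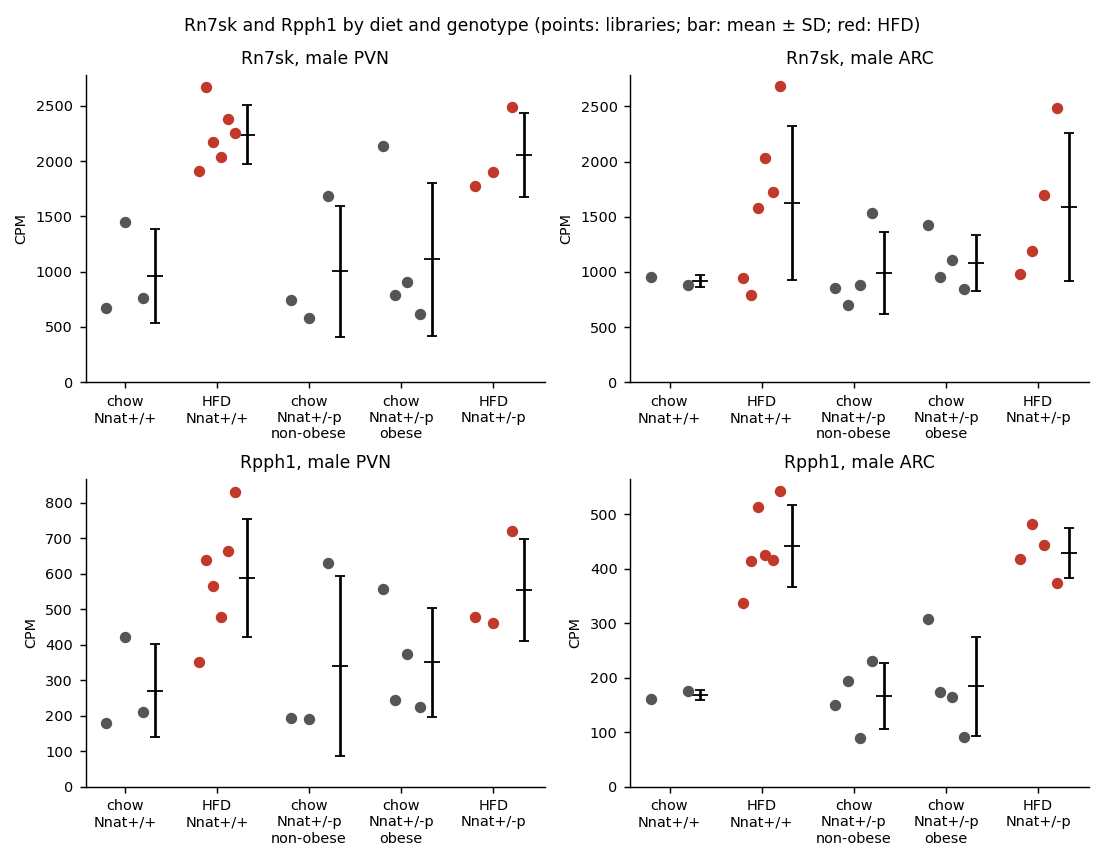
Level in CPM of Rn7sk and Rpph1 in the male libraries by genotype and diet, with 1 point per library and the mean ± SD beside it. All 10 HFD libraries of the ARC lie above all 10 chow libraries for Rpph1, while for Rn7sk the diets overlap in the ARC.

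In the ARC, Rpph1 separated the diets. On chow it was 161 and 174 CPM in Nnat+/+ libraries 33 and 34. It was 150, 194, 90 and 230 CPM in the non-obese group and 308, 173, 165 and 91 CPM in obese Nnat+/-p libraries. On HFD it ran from 337 to 542 CPM in Nnat+/+ (median 420 CPM, n = 6), and was 418, 482, 443 and 373 CPM in Nnat+/-p libraries 50 to 53. The lowest HFD library, at 337 CPM, was above the highest chow library, at 308 CPM.

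Rpph1 was called in both genotypes of the ARC. In Nnat+/+ its log2 fold change was 1.58 (SE 0.35, adjusted p = 0.067 by edgeR), where 1 of 6 members and 1.16% of all genes were called. It was 1.45 in Nnat+/-p (SE 0.23, adjusted p = 0.00054 by edgeR), where 2 of 6 members and 3.87% of all genes were called, and both members were higher. Only 2 chow libraries stand behind the Nnat+/+ value, and without either of them, when the spread of the remaining one is taken from the other groups, the call was lost (adjusted p = 0.755 without replicate 33 and 0.401 without replicate 34). In Nnat+/-p the call of Rpph1 held under all of the alternatives at that threshold, with adjusted p from 1.54e-22 to 0.0733 by edgeR, limma or DESeq2.

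Rn7sk in the ARC was more spread. On chow it was 957 and 883 CPM in Nnat+/+, 852, 697, 882 and 1532 CPM in the non-obese group and 1429, 950, 1106 and 849 CPM in obese Nnat+/-p libraries. On HFD it ran from 791 to 2686 CPM with a median of 1648 CPM in Nnat+/+ (n = 6), and was 979, 1189, 1702 and 2487 CPM in Nnat+/-p libraries. The ranges of the diets overlapped in both genotypes. In Nnat+/-p its log2 fold change was 0.69 (SE 0.24, adjusted p = 0.2005 by edgeR), and leaving out any 1 of 10 of the 12 libraries, or scaling by the library total alone (0.61, adjusted p = 0.410), ended that call. In Nnat+/+ it was 0.98 (SE 0.34, adjusted p = 0.320 by edgeR), and it was called without replicate 45 (1.11, adjusted p = 0.192).

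Malat1, Miat and Snhg11 were higher on HFD at an unadjusted p under 0.05 in the ARC of Nnat+/+ mice only, and were not called there in the main fit. Of 20 alternatives, 3 called Malat1, 2 called Snhg11 and 1 called Miat, while 6 called Rn7sk. Over all genes these alternatives called up to 754, against 182 in the main fit. The chow libraries had 1893 and 1378 CPM of Malat1, and the HFD libraries 1764 to 3154 CPM with a median of 2121 CPM (n = 6), so the ranges overlapped. The log2 fold change of Malat1 was 0.71 (SE 0.27, adjusted p = 0.388 by edgeR), that of Snhg11 0.64 (SE 0.28, adjusted p = 0.514) and that of Miat 0.83 (SE 0.39, adjusted p = 0.565). In Nnat+/-p they were 0.14, 0.22 and 0.44. Neat1 gave -0.06 and -0.56 in the ARC and 0.09 and -0.72 in the PVN. In the PVN the diet changes of Malat1, Miat and Snhg11 ran from -0.34 to 0.28.

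Whether the change with diet differed between genotypes was tested as a difference of the 2 changes. It ran from -0.81 (Neat1, SE 0.72) to -0.23 (Miat, SE 0.42) in the PVN and from -0.57 (Malat1, SE 0.33) to -0.14 (Rpph1, SE 0.39) in the ARC. For Rn7sk it was -0.32 (SE 0.45) in the PVN and -0.29 (SE 0.40) in the ARC. No member was called, with 0% of all genes called in the PVN and 0.0127% in the ARC. In the PVN 677 genes had an unadjusted p under 0.05 and DESeq2 called 14, none of them a member.

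**Figure D3:**
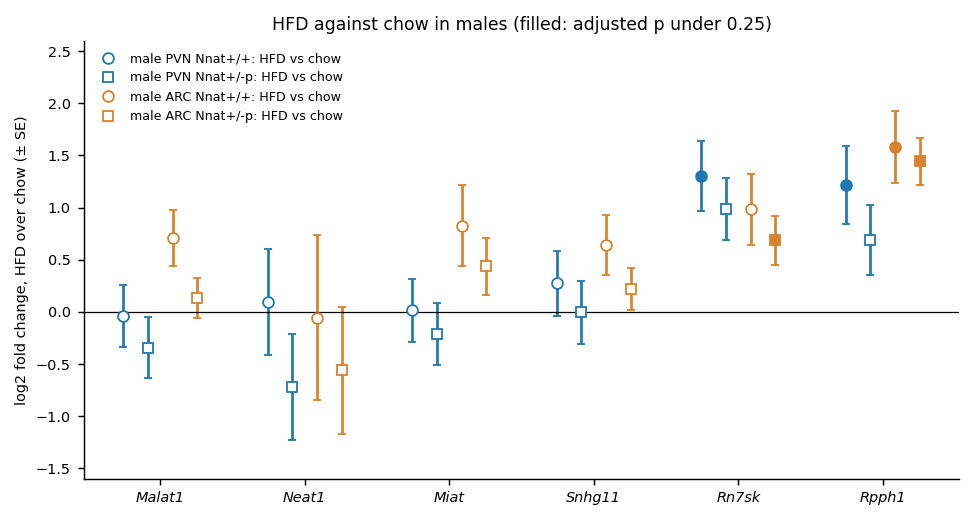
Log2 fold change, HFD over chow, with its standard error, for the 6 counted RNAs in both nuclei and genotypes, where filled points have an adjusted p under 0.25 by edgeR. Rn7sk and Rpph1 are above 0 in all 4 comparisons, from 0.69 to 1.58, and the 5 filled points belong to them.

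Several measures moved with the diet beside these values. The labelled weights of Nnat+/+ libraries were 31.4 to 33.5 g on chow in both nuclei. On HFD they were 37.4 to 42.9 g in the PVN and 37.4 to 43.9 g in the ARC, with no overlap. In Nnat+/+, diet and body weight therefore cannot be told apart. The HFD libraries of the male PVN were deeper, at 5582716 to 8560199 counts against 2268021 to 6139659 on chow. With the library total as a covariate in edgeR, a choice made after the data were seen, the log2 fold changes in PVN Nnat+/+ were 0.89 for Rn7sk (adjusted p = 0.701) and 0.89 for Rpph1 (adjusted p = 0.755), and neither was called. Since the totals of the diets overlapped little in the male PVN, this fit cannot tell the part of the total from that of the diet. In the ARC the share of counts on mitochondrial genes other than rRNA was 2.17% to 2.81% in the 10 chow libraries and 1.21% to 1.77% in the 10 HFD libraries, with no overlap, while the whole mitochondrial share overlapped (29.1% to 48.8% and 28.7% to 48.1%). The part of this in the levels of Rn7sk and Rpph1 was not tested. In the ARC the totals of the diets overlapped, and with the same covariate Rpph1 was called at 1.53 in Nnat+/+ (adjusted p = 0.0779) and 1.47 in Nnat+/-p (adjusted p = 0.000338), and Rn7sk at 0.74 in Nnat+/-p (adjusted p = 0.122). The mitochondrial share was also used as a covariate, again chosen after the data were seen. With it Rn7sk in the ARC was 1.26 in Nnat+/+ (adjusted p = 0.00607 by edgeR) and 1.08 in Nnat+/-p (adjusted p = 0.00074 by edgeR). The values of Rpph1 and of the PVN with this covariate are not given here.

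Cell type markers moved in part with the diet. In the ARC of Nnat+/+ mice, the oligodendrocyte markers Mbp, Mobp and Mal fell (-1.09, -1.25 and -0.91), Gfap rose and Agt fell among 7 astrocyte markers, Col23a1 rose among 3 ependymal and tanycyte markers, and none of 8 neuron markers passed. In the ARC of Nnat+/-p mice none of those passed, but all 6 ARC markers (Agrp, Pomc, Npy, Cartpt, Ghrh and Tbx3) and 3 of 6 PVN markers (Oxt, Avp and Otp) were higher on HFD. In Nnat+/+ Tbx3 and Cartpt were higher. Among libraries of the ARC, summed ARC markers ran from 54.6 to 198 CPM on chow and from 148 to 764 CPM on HFD, and PVN markers from 23.0 to 58.1 CPM and from 35.6 to 117 CPM. In the PVN of Nnat+/+ mice Rbfox3, a neuron marker, and Pomc fell, by 0.93 and 4.18 on the log2 scale, but without replicate 15 neither was called, with -0.44 for Rbfox3 (adjusted p = 0.531) and -0.28 for Pomc (adjusted p = 0.928, both by edgeR). Without it C1qa (-1.12) among 8 microglia markers, and Ccdc153 (-4.53) and Tmem212 (-5.60, not tested with replicate 15) among 6 ependymal and tanycyte markers, were called lower. With replicate 15 no microglia marker passed in any comparison of diets, and no endothelial marker passed in any of them, or in PVN Nnat+/+ without replicate 15. Their part in the levels of Rn7sk and Rpph1 was not tested.

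Other small structural RNAs moved the same way as Rn7sk and Rpph1 in the ARC. Of 16 tested in Nnat+/-p, 13 rose on HFD, among them Rny1 and Rny3 (Y RNAs, 2.78 and 2.52), Rnu11 and Rnu12 (spliceosomal RNAs of the minor class, 3.37 and 4.51), Snora73b (2.87) and the 7SL RNAs Rn7s1 and Rn7s2 (3.52 and 2.13), and all 16 had a positive log2 fold change with a median of 2.13 against -0.03 over all genes. Vaultrc5, Snord13, Snord17, Scarna2, Scarna6 and Scarna13 made up the 13. In Nnat+/+ 3 of the 16 rose (Snord17, 1.92, Scarna2, 1.36, and Scarna13, 1.54) with a median of 1.90 against 0.02. In the PVN most also had a positive log2 fold change, and the difference between the nuclei was not tested. In PVN Nnat+/+ none of 14 was called higher and Terc, the telomerase RNA, fell (-3.84), with 13 positive and a median of 0.94 against -0.03 over all genes. Without replicate 15, 15 were tested with a median of 1.12, Snora73b (1.76) and Scarna13 (1.47) were called higher, and Terc fell (-4.32). In PVN Nnat+/-p none passed, with 11 of 14 positive and a median of 0.58 against -0.04. The list was chosen with earlier results of these data known, and the chow libraries are the same as for the members. Among the chow groups alone 10 of this list were tested in the ARC, against 16 with the HFD libraries in the fit. In the PVN these numbers were 12 and 14. Genes that pass the filter only through the HFD libraries are higher there by that choice. The signs, counts and medians of this list are therefore descriptions.

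For the proteins that work with these RNAs, single genes were tested and the groups were not. None of 7 proteins of the 7SK particle, 11 proteins of RNase P and RNase MRP and 10 paraspeckle proteins was called in any comparison, though the paraspeckle protein Pspc1 (0.48 in PVN Nnat+/+) was called at 0.65 without replicate 15 (adjusted p = 0.220 by edgeR). Of 11 subunits of RNA polymerase III, Polr3f rose in the ARC of Nnat+/-p mice (0.75), where the median of the list was 0.39 against -0.03 over all genes and 8 were positive. Of 12 nuclear speckle proteins, Srsf3 rose in the ARC of Nnat+/+ mice (1.07), where 11 were positive with a median of 0.18 against 0.02 over all genes, and in PVN Nnat+/+ 10 were positive with a median of 0.17 against -0.03. Of 14 other long noncoding RNAs tested in the ARC, Sox2ot fell in Nnat+/+ (-1.44). Of 15 in the PVN, Dlx6os1 was called higher in Nnat+/+ (7.51, SE 2.17, adjusted p = 0.173 by edgeR). It gave 7.53 without replicate 15, where Dleu2 fell (-3.32). Among the PVN chow groups alone 13 of this list were tested. The size of the Dlx6os1 value is therefore uncertain. Of 11 snoRNA host genes in the ARC, Gas5 rose in Nnat+/-p (0.82), and none of 12 passed in the PVN. Of 3 rRNA-like loci tested, Lars2 (1.93) and Gm42418 (2.04) rose in the ARC of Nnat+/-p mice, and the summed level of these loci was 56159 to 320330 CPM on HFD against 21341 to 93642 CPM on chow.

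Ratios of 2 members within a library do not depend on its total, and are given as a description. The ratio of Malat1 to Snhg11 counts ran from 5.89 to 12.3 over the 49 libraries. Each RNA alone ran over a wider range, from 1352 to 16033 CPM of Malat1 and from 170 to 1892 CPM of Snhg11. In female replicates 2, 3 and 10 this ratio was 6.90 to 9.15, against 9.89 to 12.3 in the other 7 female libraries. In the male PVN its median was 8.59 on chow and 6.64 on HFD. The ratio of Rn7sk to Rpph1 ran from 2.43 to 5.44 in the male PVN, from 1.75 to 4.99 in the female PVN and from 1.91 to 9.80 in the ARC, where the SD of its log2 was 0.64 and that of log2 CPM of Rn7sk alone 0.57. The ratio of Malat1 to Rn7sk ran from 2.75 to 9.16 in the 10 chow libraries of the male PVN and from 1.39 to 2.34 in the 9 HFD libraries, with no overlap. That of Malat1 to Rpph1 ran from 9.99 to 34.2 and from 5.02 to 9.66, again with no overlap. In the ARC it ran from 6.61 to 20.3 on chow and from 4.26 to 6.71 on HFD, and those ranges met at their ends. Malat1 over Rn7sk in the ARC overlapped widely, at 1.42 to 3.12 and 0.70 to 2.39.

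**Figure D4:**
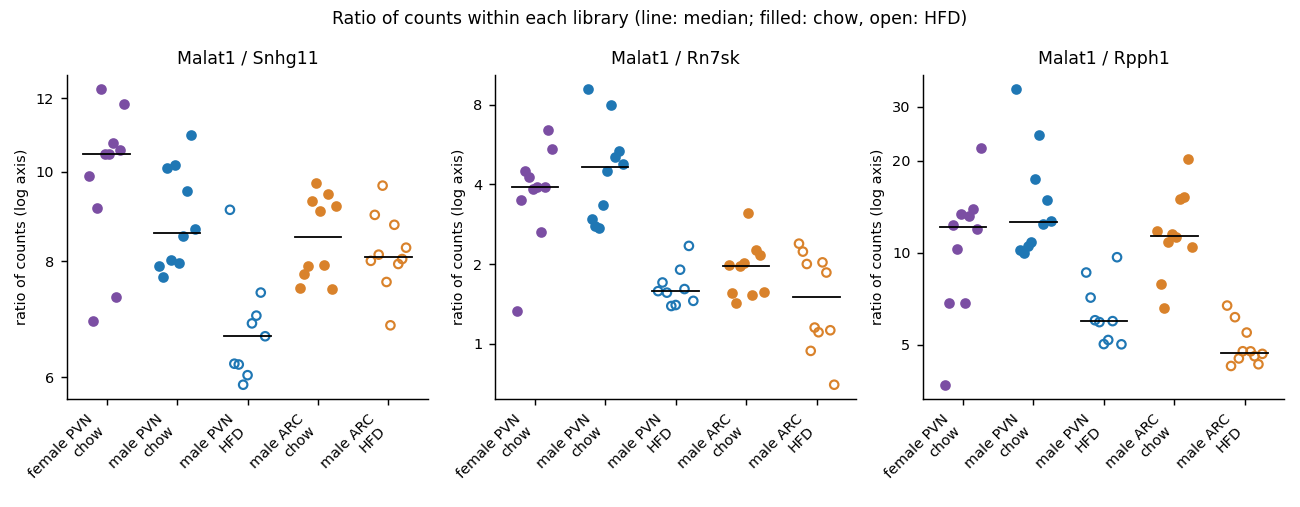
Ratio of counts of Malat1 to those of Snhg11, Rn7sk and Rpph1 in each library on a log axis, with 1 point per library, a line at the median, filled points for chow and open points for HFD. Malat1 over Rn7sk in the male PVN is 2.75 to 9.16 on chow and 1.39 to 2.34 on HFD.

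Over libraries the relation between members was measured as Pearson's r and Spearman's rho of log2(CPM + 1), within each table, with permutation p-values over 100000 resamples, two-sided, adjusted by the Benjamini-Hochberg method over 45 relations. Of these, 23 had an adjusted p under 0.05. Malat1 and Snhg11 gave r = 0.87 in the male PVN (n = 19, rho 0.84, adjusted permutation p 9e-05 for r and 0.000112 for rho) and r = 0.91 in the male ARC (n = 20, rho 0.90, the same adjusted permutation p-values), and the unadjusted p of 1e-05 is the smallest that these permutations can give. Without the 2 libraries farthest from the median, r was 0.80 and 0.84. Rn7sk and Rpph1 gave r = 0.93 in the male PVN (rho 0.91, adjusted permutation p 9e-05 and 0.000112) and r = 0.63 in the male ARC (rho 0.67, adjusted permutation p 0.0124 and 0.00935), and 0.92 and 0.59 without the 2 libraries. Malat1 and Rn7sk gave r = 0.09 in the male PVN (rho 0.01, adjusted permutation p 0.750 and 0.985), and r = 0.41 in the male ARC (rho 0.42, adjusted permutation p 0.116 and 0.133). All members share the library total as a divisor, and each r in males takes in libraries of both diets. Each of these can make members vary together. Over 58 alternatives, with values centred on group means among them, r of Rn7sk with Rpph1 ran from 0.90 to 0.95 in the male PVN. In the ARC it ran from 0.39 to 0.76.

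Other relations past the threshold involved Miat, Neat1 and Rpph1. Malat1 with Miat gave 0.86 in the male PVN (rho 0.88, adjusted permutation p 9e-05 and 0.000112, 0.78 without the 2 libraries) and 0.66 in the ARC (rho 0.65, adjusted permutation p 0.0068 and 0.0126, and 0.56). Miat with Snhg11 gave 0.86 (rho 0.81, adjusted permutation p 9e-05 and 0.00045, and 0.79) and 0.58 (rho 0.54, adjusted permutation p 0.0185 and 0.0514, and 0.53). In the male PVN, Malat1 with Neat1 gave 0.53 (rho 0.56, adjusted permutation p 0.0436 and 0.0478, and 0.67), and Snhg11 with Rpph1 0.52 (rho 0.45, adjusted permutation p 0.0475 and 0.117, and 0.37). Without replicate 15 these 2 relations no longer passed, with r at 0.41 and 0.44. In the ARC, Rpph1 gave 0.62 with Miat (rho 0.57, adjusted permutation p 0.0126 and 0.0377, and 0.58), 0.51 with Malat1 (rho 0.54, adjusted permutation p 0.0457 and 0.0514, and 0.35) and 0.50 with Snhg11 (rho 0.46, adjusted permutation p 0.04997 and 0.109, and 0.31). The other 10 lay in the female PVN, where replicates 2, 3 and 10 form a cluster of their own, so no pooled r is given for them. Without those 3, the total past the threshold over all tables was 10 of 45.

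The genes most like each member were taken over all 49 libraries, by r of log2(CPM + 1) centred on the group mean, among 14057 genes. These are descriptions, in which the points share the library total. For Malat1 they were Snhg11 (0.97), Meg3 (0.94) and Kcnq1ot1 (0.92), long noncoding RNAs too. For Snhg11 they were Malat1, Kcnq1ot1 (0.91) and Meg3 (0.90), and for Miat they were Meg3 (0.90), Snhg11 (0.89) and Malat1 (0.89). For Rpph1 they were Gm22009 (0.81), Scarna2 (0.79) and Scarna13 (0.77), the last pair being small RNAs of Cajal bodies, and for Rn7sk they were Gm22442 (0.77), Rpph1 (0.76) and Rian (0.75). For Neat1 they were Lactbl1 (0.70), Gm13425 (0.67) and Phldb2 (0.64). Without replicates 2, 3 and 10 the same pairs gave from 0.53 (Neat1 with Phldb2) to 0.94 (Malat1 with Snhg11).

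The last question was how the levels go with the library total and with the mitochondrial share, in 36 relations tested in the same way. With the mitochondrial share none passed an adjusted permutation p under 0.05, although 4 had an unadjusted p under 0.05 for r or rho. These were Malat1 and Snhg11 in the female PVN, Malat1 in the male PVN (r = 0.45, rho 0.49) and Miat in the ARC (r = -0.37, rho -0.49). CPM and this share have the same divisor, so the absence of calls depends on the scaling. Up to 5 relations with the share passed under the alternatives. That number was reached with CPM over counts outside mitochondrial genes and with values centred on group means. With log10 of the library total, 6 passed, 3 of them in the female PVN. In the male PVN Rn7sk gave r = 0.74 (n = 19, rho 0.68, adjusted permutation p 0.00324 for r and 0.0200 for rho), and 0.62 without the 2 libraries farthest from the median total, replicates 13 and 19. Rpph1 gave r = 0.60 (rho 0.55, adjusted permutation p 0.0332 and 0.0767), and 0.41 without the 2. Neat1 gave the opposite, r = -0.67 (rho -0.69, adjusted permutation p 0.0156 and 0.0200), and -0.57 without the 2.

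Within one diet, with fewer libraries, the relations of Rn7sk and Rpph1 no longer passed, and r kept its sign on chow but not on HFD. For Rn7sk, r was 0.45 on chow (n = 10, rho 0.59) and -0.37 on HFD (n = 9, rho -0.18). For Rpph1 it was 0.38 on chow (rho 0.55) and -0.49 on HFD (rho -0.33). Without the 2 libraries farthest from the median total, r for Rn7sk was 0.11 on chow and 0.12 on HFD. For Rpph1 it was then -0.03 and -0.24, so these few libraries do not settle the sign. Neat1 kept its sign, at -0.67 on chow (rho -0.56) and -0.71 on HFD (rho -0.78). None of the 60 relations within one diet passed, with the smallest adjusted permutation p at 0.0768 for Neat1 with the mitochondrial share in the ARC on chow (r = -0.85, n = 10). The part of the diet in these relations was not tested beyond this split. In the ARC, r with the library total lay between -0.51 (Neat1) and 0.20 (Rn7sk), with no adjusted permutation p under 0.05, and r for Neat1 was -0.0026 without replicates 39 and 45.

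In the female PVN the libraries form clusters, so the relation is given within the 7 libraries other than replicates 2, 3 and 10. There r with the library total was -0.63 for Malat1 (rho -0.64, permutation p 0.141, adjusted 0.500), -0.33 for Miat (rho -0.61, permutation p 0.469, adjusted 0.670) and -0.79 for Snhg11 (rho -0.86, permutation p 0.0377, adjusted 0.327). These are the 3 members whose relation over all 10 libraries passed. Among the 7 the sign was the same and no adjusted p was under 0.05, with 3 fewer libraries.

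**Figure D5:**
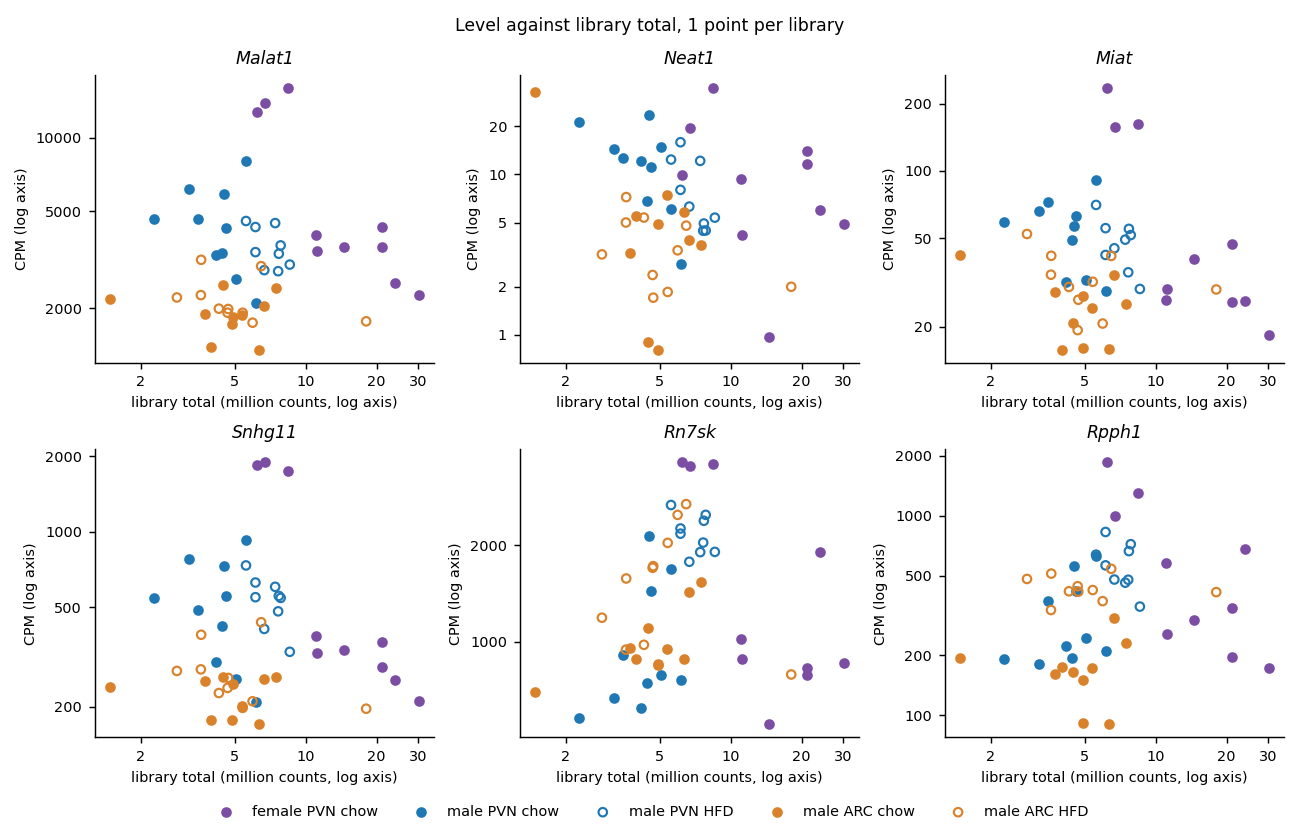
Level in CPM of each of the 6 counted RNAs against the library total (in Mcounts), both on log axes, with 1 point per library, filled for chow and open for HFD. The 3 female libraries between 6219365 and 8417480 counts stand above the other female points for Malat1, Miat, Snhg11, Rn7sk and Rpph1, and in the male PVN the open HFD points of Rn7sk lie at higher totals than most chow points.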

How the data were processed

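Hypothalamic nuclei were laser-captured and sequenced with a stranded total RNA kit for picogram input (SMARTer Pico v2), single end. The deposited values are raw counts per Ensembl gene, which the authors made after alignment with STAR 2.5.0a to GRCm38 per the submitters' processing notes. The counting tool is not given in the sources used here. There were 3 count tables (female PVN, male PVN, male ARC), each analysed on its own, with 49 of 53 libraries in use and totals from 1479953 to 30228973 counts. CPM was computed from each library's total.

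Groups were compared with edgeR 4.0.16 (quasi-likelihood test, TMM, filterByExpr with a minimum count of 10) in R 4.3.3, called at a Benjamini-Hochberg adjusted p under 0.25 over all genes tested. Chow groups were fitted together, and where HFD entered, the 5 male groups of the nucleus were fitted as one. For Nnat+/-p, HFD was set against the mean of obese and non-obese chow. Relations used log2(CPM + 1), with 100000 permutations. Rmrp was 0 throughout, so 36 and 45 relations were tested in place of the 42 and 63 set out. Tools were tested on simulated data. Floors (3 counts) cover counting error only.

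Alternatives were DESeq2 1.42.0, limma 3.58.1 (voom with quality weights), other scalings and filters, other sets of libraries and leaving out each replicate. The Nnat+/-p diet comparison, its difference between genotypes, the covariates, the relations within one diet, the fits without female replicates 2, 3 and 10 and the list genes without male replicate 15 were chosen after the data were seen. Members and lists were chosen with earlier results of these data known. Members were named always, with single fold changes where the unadjusted p was under 0.05, list genes where called, and the 3 genes most like each member. Near copies were found with blastn 2.17.0 (95% identity over 50 bases). Sequences and positions are from GENCODE M21 on GRCm38. The result of 1 listed marker gene is not reported here.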

Additional observations from a re-analysis of the deposited data

Results flagged for a closer look

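Among groups of 4 to 10 libraries, 42 values (6 members in 7 groups) were examined for a library standing apart, and 1 was found. Neat1 was 32.4 CPM in replicate 39, a male ARC library of a non-obese Nnat+/-p mouse on chow. The nearest of the other 3 libraries had 5.83 CPM and the lowest 3.62 CPM, so the gap took 0.923 of the range. Chance alone gives about 1 such library in 20 groups. This library had the lowest total of those used, 1479953 counts, and its labelled weight of 34.3 g is that of replicate 40, which had 5.83 CPM.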

How the results depend on the processing

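No paired analysis was made, because the labels number the libraries from 1 to 53 and no label pairs mice between the groups compared. The labelled weights largely repeat between the PVN and the ARC, and these nuclei were fitted apart. Between genotypes and between obese and non-obese mice, no member was called in males under any of the alternatives, and none differed between genotypes in its change with diet. In the female PVN, keeping every gene with a total over 1 in edgeR gave 5 members for obese Nnat+/-p against Nnat+/+, 1 for non-obese against Nnat+/+ and 4 for obese against non-obese, where the main filter gave 0. Over all genes the alternatives gave up to 936, 235 and 622 calls in these comparisons (main 2, 1 and 0). The member counts are therefore not read as a result about the members. In the female PVN the log2 fold change of Miat, obese Nnat+/-p over Nnat+/+, was 0.16 with voom and 0.45 without replicates 2, 3 and 10. The cause of these shifts was not tested.

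For PVN Nnat+/+, where 2 members were called between diets, DESeq2 and voom gave 1 each, the library total as covariate and an adjusted p under 0.05 gave 0 each, and leaving out 1 replicate gave 0 to 2 (0 without replicate 13). For PVN Nnat+/-p, with 0 called, voom gave 1, every gene with a total over 1 gave 2, leaving out replicates 15 and 24 gave 1, and leaving out 1 replicate gave 0 to 2. For ARC Nnat+/+, with 1 called, voom and the fit of only the 2 groups gave 3, every gene with a total over 1 and the mitochondrial share as covariate gave 4, all labelled libraries gave 2, an adjusted p under 0.05 gave 0, and leaving out 1 replicate gave 0 to 2 (0 without replicate 33 or 34). For ARC Nnat+/-p, with 2 called, DESeq2, scaling without TMM, all labelled libraries, leaving out replicates 24, 30, 44 and 51, summing replicates 39 and 40, and an adjusted p under 0.05 gave 1 each, and leaving out 1 replicate gave 1 to 2. Over all genes, the count called between diets ran from 22 to 1134 in PVN Nnat+/+ (main 251), 0 to 478 in PVN Nnat+/-p (main 42), 3 to 754 in ARC Nnat+/+ (main 182) and 128 to 1023 in ARC Nnat+/-p (main 609). It reached 936 between obese Nnat+/-p and Nnat+/+ females (main 2), 64 in the comparisons of genotypes in males (main 0 to 4) and 44 for the difference of diet changes (main 0 and 2). Member counts under single alternatives are given here without the share of all genes called in the same setting. They are therefore not read as a result about the members.

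Of the relations with the library total, 6 passed, against 2 without replicates 2, 3 and 10 and 0 within one diet. With the mitochondrial share 0 passed, against 5 with CPM over counts outside mitochondrial genes, 2 with TMM factors, 5 centred on group means and 3 with all labelled libraries, and 0 to 3 when 1 replicate was left out. Between members 23 passed, against 10 without replicates 2, 3 and 10 and 13 by Spearman's rho. With all labelled libraries, r with the library total in the female PVN turned to 0.89 for Malat1, 0.68 for Miat and 0.84 for Snhg11, and r of Rpph1 in the ARC to -0.62 with Malat1, -0.28 with Miat and -0.17 with Snhg11, where the shallow replicates 5, 7 and 35 enter. Without replicates 2, 3 and 10, r in the female PVN turned to -0.45 for Malat1 with Rn7sk, -0.41 for Miat with Rn7sk, -0.14 for Miat with Rpph1 and -0.33 for Snhg11 with Rn7sk.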

Other observations

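Replicate 32 was put in no group, since its label names the ARC of an Nnat+/-p mouse on HFD while its counts stand in the male PVN table. It had 3476 CPM of Malat1, 8.44 CPM of Neat1, 53.2 CPM of Miat, 499 CPM of Snhg11, 2512 CPM of Rn7sk and 605 CPM of Rpph1, with no count of Rmrp.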
